A study of Mus musculus with 2 samples.

Results

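The stefins and cystatins described here are 6 genes, Stfa2l1, Stfa2, Cstdc4, Csta2, Cstb and Cst3, out of the 32285 genes counted in each library, and all 6 were found by symbol. They were chosen with earlier results of these data known, so their levels by cell type and day are given as descriptions, without tests. Both libraries held mononuclear cells of the quadriceps of WT (wild-type) male mice, 14 weeks old, whose muscle had been injured with BaCl2, a salt that kills myofibers and starts an acute inflammatory and regenerative response. The groups were day 1 and day 3 after that injury, with 1 library per day from pooled mice, so day, pool and library cannot be told apart. Library chemistry may also differ with the day, for the reason given with the processing, and could then not be told apart from it either. Cells were cryopreserved and thawed before single-cell libraries were made with a 10x Genomics kit that reads the 3′ ends of transcripts, and the suspension holds no intact myofibers. There was no uninjured library among the samples analysed here.

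Stefins and cystatins are small proteins that bind into the active site of papain-like cysteine proteases, mainly the lysosomal cathepsins, and block them reversibly. Stefins (type 1 cystatins) lack a signal peptide and act mainly inside the cell, whereas Cst3 (cystatin C, a type 2 cystatin) is secreted. The mouse carries a cluster of closely related stefin A genes, best known from myeloid cells, whereas Cstb (stefin B) and Cst3 are expressed in many cell types.

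Cells were the barcodes with the most unique molecular identifiers (UMIs, 1 for each captured transcript), with at least 1000 UMIs, at least 200 genes and at most 7.5% mitochondrial UMIs. This left 6735 cells on day 1 (median 9389 UMIs) and 4627 on day 3 (median 14548), and no barcode of a kept cell was shared by the libraries. The mitochondrial limit was exceeded by 7.02% of the barcodes taken on day 1 and by 30.3% on day 3. Clusters were named from marker lists: 2072 neutrophil-like cells on day 1 and 250 on day 3, 3406 and 2547 monocyte/macrophage-like cells, 654 and 847 fibroblast/FAP-like cells (FAPs are fibro-adipogenic progenitors), 363 and 434 dendritic cell-like cells, and 82 and 23 endothelial cell-like cells. Satellite/myogenic cell-like cells numbered 6 on day 1 and 200 on day 3, and 1 cluster led by Itgal and Plac8, with 152 and 326 cells, stayed unnamed. Levels are UMIs of a gene per 1000000 UMIs (CPM) summed over the cells of a group, and shares are the percentage of cells with at least 1 UMI. Intervals are 95% and cover counting error only: exact Poisson for a CPM, exact binomial (Clopper-Pearson) for a share.

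The neutrophil-like cells differed between the days in more than their stefins. All 9 neutrophil markers (S100a8, S100a9, Csf3r, Cxcr2, Retnlg, Mmp9, Ly6g, Lcn2 and G0s2) had UMIs in them on both days, but their summed level was 86329 CPM on day 1 and 28402 CPM on day 3. The fibroblast list stood at 24.0 CPM in day 1 and 2063 CPM in day 3 neutrophil-like cells, and the macrophage list at 342 and 2215 CPM. These cells were also the shallowest, with a median of 2156 UMIs on day 1 and 1616.5 on day 3, against 11242 and 14895 in monocyte/macrophage-like cells. Every day contrast of neutrophil-like cells below carries this shift in makeup, whose part in the result was not tested.

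The 4 stefin A genes lie on chromosome 16 (GENCODE models, GRCm38/mm10) among 10 stefin A genes that the files list within 335 kb. Stfa2l1 spans chr16:36156811-36161953 and Cstdc4 chr16:36184212-36188111, both on the plus strand with up to 3 exons. Csta2 (plus strand, chr16:36221468-36257444) is the longest of the 4, at 35977 bases with 3 to 5 exons, and Stfa2 (chr16:36403992-36408457) lies on the minus strand. Cstb (chr10:78425669-78427622, plus strand) and Cst3 (chr2:148871722-148875692, minus strand) lie elsewhere. The sequences just upstream of Stfa2l1, Cstdc4 and Csta2 are printed because these 3 genes carry the cell type and day patterns described below; they are RefSeq sequences of GRCm38.p6, plus strand, 5′ to 3′. In the first pair the capitals mark the longest run that the 250 bases before the 2 starts share, and in Csta2 they mark ATTGG, which is CCAAT on the other strand.
Stfa2l1, chr16:36156561-36156810: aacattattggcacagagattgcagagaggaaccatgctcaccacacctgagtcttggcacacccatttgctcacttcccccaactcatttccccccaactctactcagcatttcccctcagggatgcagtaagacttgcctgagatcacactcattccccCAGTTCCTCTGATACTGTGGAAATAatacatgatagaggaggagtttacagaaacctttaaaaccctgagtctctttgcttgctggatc
Cstdc4, chr16:36183962-36184211: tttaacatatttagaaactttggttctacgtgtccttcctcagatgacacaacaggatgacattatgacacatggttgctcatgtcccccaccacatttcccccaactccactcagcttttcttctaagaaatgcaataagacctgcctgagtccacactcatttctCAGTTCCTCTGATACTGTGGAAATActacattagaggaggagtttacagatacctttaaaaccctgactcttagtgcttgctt
Csta2, chr16:36221312-36221467: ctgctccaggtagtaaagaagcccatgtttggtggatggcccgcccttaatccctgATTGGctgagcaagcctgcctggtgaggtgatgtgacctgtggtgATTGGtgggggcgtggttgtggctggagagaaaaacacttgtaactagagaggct

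The shared run of Stfa2l1 and Cstdc4 is 25 bases long, begins 89 bases before the start of Stfa2l1 and 83 before that of Cstdc4, and occurs in 2 of 32851 RefSeq promoters read along each gene's own strand, those of these 2 genes. Stfa2l1 and Stfa2 share a longer run of 65 bases, whereas the longest run that Csta2 shares with Cstdc4 is 10 bases and with Stfa2l1 8 bases. The motif TTTAAAA, which resembles a TATA box, had 1 match each before Stfa2l1, Cstdc4 and Stfa2, between 29 and 33 bases from the start, and occurs on either strand in 8.10% of all promoters, but its letters are not in the Csta2 window. CCAAT, on either strand, had 2 matches before Csta2, 1 each before Stfa2l1 and Stfa2, and 0 before Cstdc4 and Cst3. The match before Stfa2l1 is printed above without capitals. CCAAT occurs in 33.8% of all promoters on either strand, and GAGGAA, a core that ETS family factors such as PU.1 can bind, in 23.3%. GAGGAA had 2 matches each before Stfa2l1 and Cstdc4, 1 each before Stfa2 and Cst3, and 0 before Csta2. Motifs and runs were searched in 250 bases before each RefSeq start, and only the first 156 of these are printed for Csta2, since its GENCODE start lies upstream of the RefSeq start. These matches describe sequence and say nothing of whether a factor binds there.

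Stfa2l1 and Cstdc4 were detected mainly in neutrophil-like cells on both days. Stfa2l1, a stefin A gene, stood at 376 CPM (359 to 393) in day 1 neutrophil-like cells and at 2.79 CPM (2.29 to 3.35) in day 1 monocyte/macrophage-like cells. On day 3 its level was 159 CPM (130 to 193) in neutrophil-like cells and 0.16 CPM (0.07 to 0.34) in monocyte/macrophage-like cells. It stood at 2.39 and 0.12 CPM in fibroblast/FAP-like cells and 8.44 and 1.31 CPM in dendritic cell-like cells on days 1 and 3. The unnamed cluster stood between neutrophil-like cells and these types on day 1, at 46.8 CPM, and at 1.42 CPM on day 3. Its neutrophil list was at 13051 and 2680 CPM. An alternative that removes doublets by score took out 46 of its 152 cells on day 1 and 2 of 326 on day 3. The part of doublets in this level was not tested. The day 1 level in neutrophil-like cells depended on the call of cells: it was 245 CPM with the libraries clustered separately, and 39.7 CPM with a UMI minimum per cell set to 10% of the 99th percentile. This minimum left 943 neutrophil-like cells with at least 4624 UMIs each, whose neutrophil list stood at 10777 CPM and macrophage list at 2682 CPM.

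Cstdc4, a stefin A gene listed under the older name Gm5483 in GENCODE, was also highest in neutrophil-like cells on both days. Its level in neutrophil-like cells was 448 CPM (430 to 466) on day 1 and 180 CPM (149 to 216) on day 3. In monocyte/macrophage-like cells it was 6.62 CPM (5.85 to 7.46) on day 1 and 0.12 CPM on day 3, and in fibroblast/FAP-like cells 2.44 and 0.16 CPM. Dendritic cell-like cells stood at 4.98 CPM (3.15 to 7.47, on 23 UMIs) on day 1 and 1.10 CPM on day 3. The day 1 interval overlaps that of monocyte/macrophage-like cells, so these 2 types cannot be ordered. For Stfa2l1 on day 1 dendritic cell-like cells stood above monocyte/macrophage-like cells, on 39 UMIs in 13 cells, 19 of them in 1 cell. Of all the UMIs of a gene in the kept cells of day 1, neutrophil-like cells held 88.2% for Stfa2l1 and 85.7% for Cstdc4, although they made up 30.8% of the cells. On day 3, when they made up 5.40% of the cells, they held 79.7% and 76.4%.

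**Figure D1:**
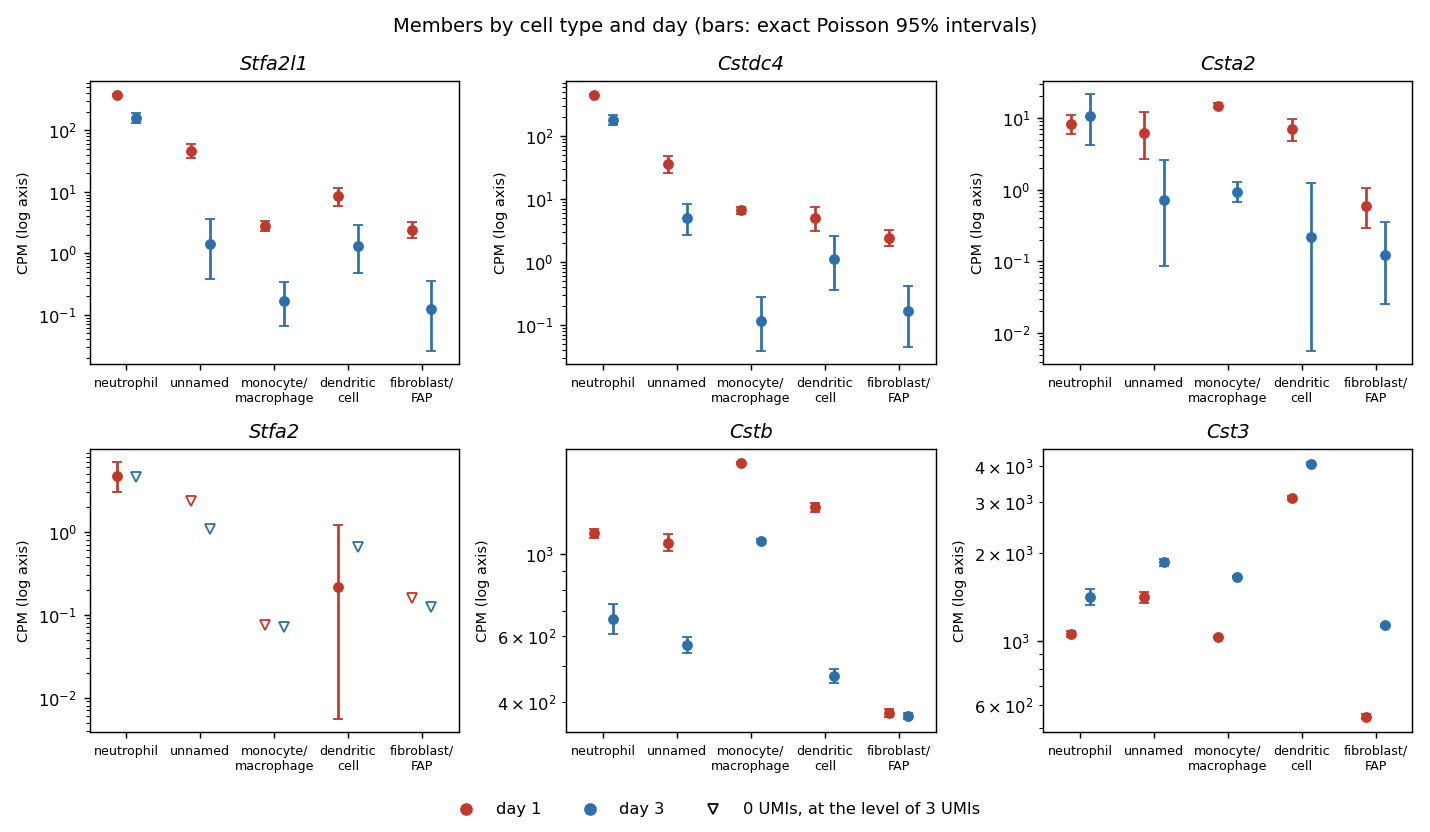
Levels of the 6 genes (CPM of summed UMIs, log axis) in 4 named cell types and the unnamed cluster on day 1 and day 3, with exact Poisson 95% intervals that cover counting error only. Open triangles mark groups with 0 UMIs at the level of 3 UMIs. Stfa2l1 and Cstdc4 are highest in neutrophil-like cells on both days, at 376 and 448 CPM on day 1, Csta2 in monocyte/macrophage-like cells on day 1, at 14.8 CPM, and Cst3 in dendritic cell-like cells, at 3111 and 4074 CPM.

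Within day 1, the log2 ratio of neutrophil-like over monocyte/macrophage-like cells was 7.07 (6.80 to 7.36) for Stfa2l1 and 6.08 (5.90 to 6.27) for Cstdc4. Stfa2 had 24 UMIs (4.68 CPM) in neutrophil-like and 0 in monocyte/macrophage-like cells, where 3 UMIs would be 0.07 CPM. Counting Stfa2, 3 of the 6 genes were thus at least 2-fold higher in neutrophil-like cells. Stfa2 lacked the 500 UMIs required of a gene in the background, where 13.4% of 5992 genes were at least 2-fold higher. Of the 5 genes that had them, 2 were past that fold. The ratio of Csta2 was −0.84 (−1.34 to −0.40), that of Cstb −0.63 and that of Cst3 0.03 (−0.01 to 0.07), so these 3 were at similar or higher levels in monocyte/macrophage-like cells. On day 3 the ratios were 9.83 for Stfa2l1 and 10.45 for Cstdc4, on 106 and 7 UMIs and on 120 and 5 UMIs, so both lie outside the genes with at least 500 UMIs, of which 8.08% were at least 2-fold higher.

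A UMI of Stfa2l1 was found in 502 of the 2072 day 1 neutrophil-like cells, a share of 24.2% (22.4 to 26.1). That share was 20.0% on day 3, and 1.15% and 0.27% in monocyte/macrophage-like cells on days 1 and 3. In fibroblast/FAP-like cells, a type not expected to express it, the share was 2.75% on day 1 at a median of 27682 UMIs, so the neutrophil-like share lies above that background at a much lower depth. After each cell was thinned to 1000 UMIs, 16.6% of day 1 and 14.8% of day 3 neutrophil-like cells had a Stfa2l1 UMI. For Cstdc4 the unthinned shares of neutrophil-like cells were 23.5% (487 cells) and 12.8%. The background shares in fibroblast/FAP-like cells were 3.06% for Cstdc4 on day 1, and 0.24% for Stfa2l1 and 0.35% for Cstdc4 on day 3.

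Stefin UMIs were unevenly spread among the neutrophil-like cells. If every day 1 neutrophil-like cell had held Stfa2l1 at the summed level, 57.1% of them would have had a UMI at their depth, and for Cstdc4 63.1%. The 502 cells with Stfa2l1 had a median of 2 UMIs of it and at most 24, and the 44 cells with at least 10 held 30.9% of its UMIs. For Cstdc4 the median was 3 and the highest 40, and 71 cells with at least 10 UMIs held 48.4%. Few cells thus carried a large part of each gene's UMIs.

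Cells with Stfa2l1 often had Cstdc4. Of the day 1 neutrophil-like cells with Stfa2l1, 299 of 502 (59.6%) also had Cstdc4, against 12.0% of those without Stfa2l1, and the median UMI count of the former cells was 2309 against 2107. On day 3 the values were 38.0% and 6.50%. Any of the 4 stefin A genes was found in 693 cells (33.4%) on day 1 and in 63 (25.2%) on day 3. Among the 9 neutrophil markers, day 1 cells with a UMI of Stfa2l1 or Cstdc4 had Retnlg, a resistin-like gene, at 777 CPM against 489 CPM in the 1382 cells with neither, and S100a8 at 40467 against 33733 CPM. S100a9 (43111 against 35211 CPM), Lcn2 (1961 against 1616 CPM) and Ly6g (16.3 against 9.48 CPM) were also higher in the former cells. Csf3r (1345 against 1300 CPM) and Cxcr2 (536 against 515 CPM) were slightly higher. Mmp9 (1603 against 1639 CPM) and G0s2 (5894 against 5982 CPM) were slightly lower, so most of the markers were higher, but not all.

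**Figure D2:**
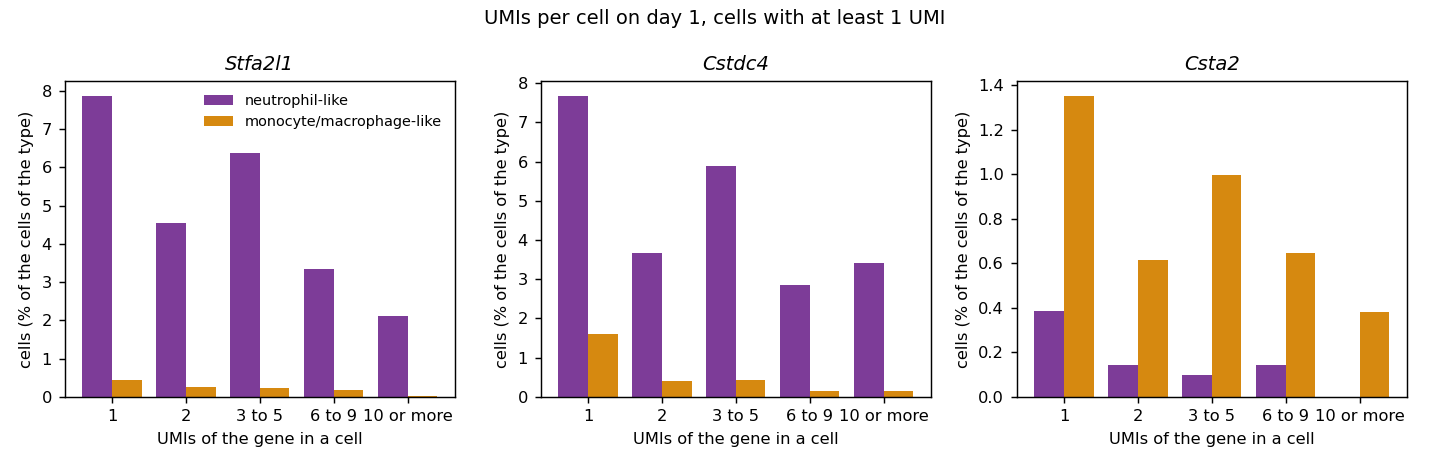
Percentage of the day 1 cells of a type (y axis, bars) by the number of UMIs of Stfa2l1, Cstdc4 or Csta2 in a cell (x axis), for neutrophil-like and monocyte/macrophage-like cells with at least 1 UMI. Of 2072 neutrophil-like cells 502 have Stfa2l1 and 487 have Cstdc4, and of 3406 monocyte/macrophage-like cells 136 have Csta2, with a highest count of 29 UMIs.

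Neutrophil-like cells formed a cluster led by Retnlg and S100a9 and a cluster led by Il23a and Acod1, with 1079 and 993 cells on day 1. Stfa2l1 stood at 399 CPM in the former and 359 CPM in the latter, and Cstdc4 at 524 and 391 CPM. On day 3, with 153 and 97 cells, Stfa2l1 stood at 118 CPM (88.0 to 155) and 241 CPM (181 to 314), the opposite order. The fibroblast list then stood at 2556 and 1092 CPM in these clusters, and its part in that order was not tested. Cstdc4 stood at 170 CPM (134 to 213) and 201 CPM (146 to 268), which overlap, and its mean over cells kept the day 1 order at 309 and 257 CPM. Both genes were thus present in both clusters, and the clusters' own leading genes were chosen from the same cells.

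The level of Stfa2l1 in neutrophil-like cells was lower on day 3 than on day 1, with a log2 ratio of −1.23 (−1.54 to −0.96), and that of Cstdc4 was lower by a similar amount, at −1.31 (−1.59 to −1.05). In the background 16.5% of 1408 genes were at least 2-fold lower. The size of this contrast depended on which cells were counted. Among the 1966 and 168 neutrophil-like cells without any UMI of the fibroblast list, a choice made after the data were seen, Stfa2l1 stood at 375 and 248 CPM and its ratio was −0.59, and Cstdc4 stood at 446 and 277 CPM with −0.68. Per 1000 UMIs of S100a9, which encodes an abundant neutrophil calcium-binding protein, Stfa2l1 had 9.83 UMIs on day 1 and 12.6 on day 3, and Cstdc4 had 11.7 and 14.2. Relative to S100a9, neither gene was lower on day 3. Over the alternatives the ratio ranged from −3.97 to −0.57 for Stfa2l1 and from −3.24 to −0.65 for Cstdc4, and was below 0 in each.

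Day 3 neutrophil-like cells with a stefin UMI differed in their markers from those without. The 63 cells with Stfa2l1 or Cstdc4 had S100a8 at 34918 CPM, the fibroblast list at 208 CPM and the macrophage list at 371 CPM. In the 187 cells with neither gene these stood at 9364, 2432 and 2581 CPM. On day 1 the fibroblast list was at 24.9 CPM in the 690 cells with a stefin UMI and at 23.4 CPM in the others, and the macrophage list at 434 and 284 CPM, an order opposite to that of day 3. The part of the fibroblast and macrophage RNA in the shares of day 3 was not tested.

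**Figure D3:**
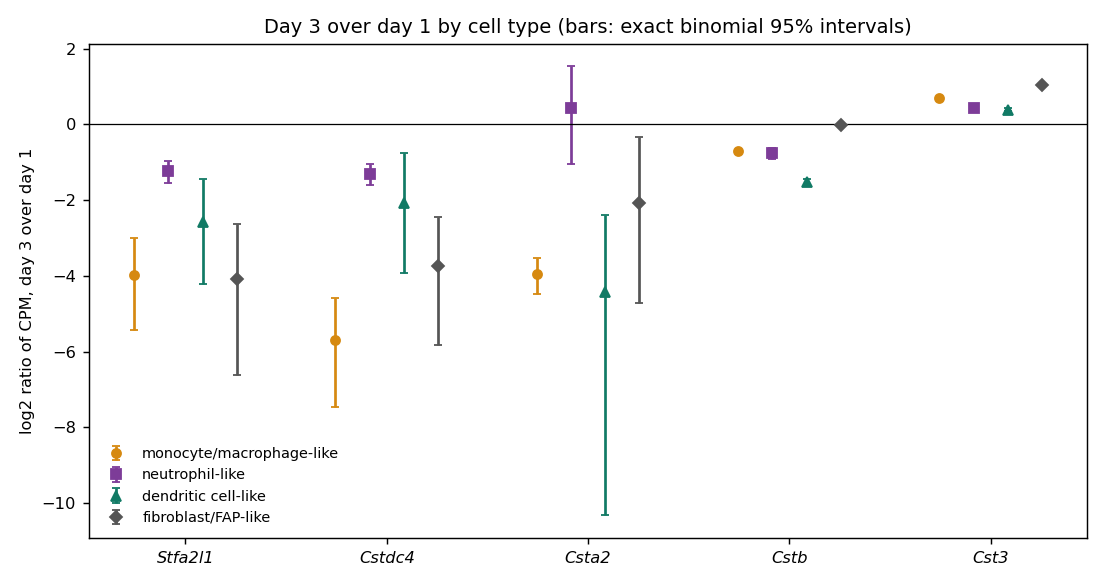
Log2 ratio of CPM, day 3 over day 1, of 5 of the genes (x axis) in 4 cell types, with exact binomial 95% intervals that cover counting error only. Below 0 lie Stfa2l1, Cstdc4 and Cstb in neutrophil-like and monocyte/macrophage-like cells (Stfa2l1 at −1.23 and −3.99), whereas Cst3 lies above 0 in all 4 types.

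In monocyte/macrophage-like cells the few UMIs of Stfa2l1 and Cstdc4 were seen mostly on day 1. The log2 ratio of day 3 over day 1 was −3.99 (−5.43 to −2.99) for Stfa2l1, from 112 and 7 UMIs, and −5.68 (−7.45 to −4.58) for Cstdc4, from 266 and 5 UMIs. Neither reached 500 UMIs in these cells. With cells thinned to 1000 UMIs the ratio of Stfa2l1 was −1.17 (−4.69 to 1.00), which spans 0, and with doublets removed −2.26, and that of Cstdc4 was −3.49 (−9.41 to −1.41) when thinned. The summed neutrophil list in monocyte/macrophage-like cells was 1376 CPM on day 1 and 284 CPM on day 3, with UMIs of all 9 markers on both days. Per 1000 S100a9 UMIs on day 1, Stfa2l1 had 8.58 in monocyte/macrophage-like cells, 9.65 in fibroblast/FAP-like cells, 9.83 in neutrophil-like cells and 8.99 in barcodes with at most 100 UMIs, which hold free RNA. Dendritic cell-like cells stood higher, at 15.8 on 39 Stfa2l1 UMIs, endothelial cell-like cells had 1 UMI of it, and monocyte/macrophage-like cells on day 3 stood at 3.66 on 7. The ratio to S100a9 was thus similar in some of these groups and not in others.

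For Cstdc4 the same ratio was 20.4 per 1000 in monocyte/macrophage-like cells against 11.7 in neutrophil-like cells, 9.87 in fibroblast/FAP-like cells and 15.6 in barcodes with at most 100 UMIs. Csta2 had 45.7 in monocyte/macrophage-like cells against 0.21 in neutrophil-like cells and 3.14 in the low barcodes. Csta2 thus did not follow S100a9 across these groups.

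Csta2 is a stefin A gene that GENCODE lists as 2010005H15Rik. On day 1, monocyte/macrophage-like cells held 86.5% of its UMIs. They made up 50.6% of the kept cells of that day and held 40198778 of the 71141227 UMIs of all genes in them. The level of Csta2 in monocyte/macrophage-like cells was 14.8 CPM (13.7 to 16.1) on day 1 and 0.94 CPM (0.67 to 1.28) on day 3. Day 1 levels were 8.18 CPM (5.90 to 11.1) in neutrophil-like cells, 6.92 CPM in dendritic cell-like cells and 0.58 CPM in fibroblast/FAP-like cells. On day 3 they were 10.5 CPM (4.23 to 21.7), 0.22 CPM and 0.12 CPM, so neutrophil-like cells stood first on day 3, on 7 UMIs. No UMI was found in 82 endothelial cell-like cells on day 1, where the interval allows a share of up to 4.40%.

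The log2 ratio of Csta2 in monocyte/macrophage-like cells, day 3 over day 1, was −3.96 (−4.48 to −3.52), from 596 UMIs to 40, and −2.71 (−4.81 to −1.40) with each cell thinned to 1000 UMIs. With Stfa2l1 and Cstdc4, 3 of the 6 genes were at least 2-fold higher on day 1 than on day 3 in these cells. Of the 3 genes with at least 500 UMIs, which were Csta2, Cstb and Cst3, only Csta2 was past that fold, where 5.49% of 8032 genes were. Neutrophil-like cells gave 0.44 (−1.04 to 1.53) for Csta2 and dendritic cell-like cells −4.42 (−10.3 to −2.40). The interval of the former spans 0.

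The monocyte/macrophage-like cells of the days fell into different clusters, so the contrast was also read within a cluster present on both. In the cluster led by Ifi213 and Rsad2, interferon-response genes, with 64 cells on day 1 and 1220 on day 3, Csta2 stood at 19.8 CPM (9.89 to 35.4) and 1.58 CPM (1.02 to 2.34). The day 1 value rests on 11 UMIs in 5 cells, 7 of them in 1 cell. Of the 64 cells, 11 were among those that an alternative with doublets removed takes out by doublet score, and the neutrophil list stood at 3877 CPM on day 1 and 457 CPM on day 3, whose part was not tested. Cstb stood there at 1486 and 969 CPM and Cst3 at 1293 and 1796 CPM. Most day 3 cells were in this cluster and in 1 led by Gpnmb and Syngr1 (1267 cells), whereas day 1 cells were mostly in clusters led by Ccl24 and Serpinb2 (1262 cells), Ppbp and Pf4 (998), Plcb1 and Saa3 (561), and Ifitm6 and Gm9733 (509). In these 4, Csta2 stood at 17.2, 11.4, 20.1 and 9.47 CPM. The gene was thus found across the day 1 clusters.

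Few day 1 monocyte/macrophage-like cells carried Csta2. It was found in 136 of 3406, a share of 3.99% (3.36 to 4.71), where an even level would give 15.8%, and in 0.75% (19 cells) on day 3. Fibroblast/FAP-like cells had a share of 0.61% on day 1 and neutrophil-like cells 0.77%. Thinned to 1000 UMIs, the day 1 share was 0.91% (0.62 to 1.29) in monocyte/macrophage-like cells and 0.34% (0.14 to 0.69) in neutrophil-like cells. These intervals overlap, so at equal depth the shares of these types cannot be ordered. The 136 cells had a median of 3 UMIs and at most 29, and 13 cells with at least 10 held 35.1% of the UMIs. Barcodes with at most 100 UMIs had Csta2 at 12.1 CPM on day 1, and free RNA, estimated from fibroblast genes, came to 1.71% of the UMIs of these cells. The same estimate gave 2.01% for neutrophil-like cells on day 1 and 36.7% on day 3. It counts all fibroblast RNA as free, and gave 543% in day 1 fibroblast/FAP-like cells. Of the 250 day 3 neutrophil-like cells, 168 had no UMI of the fibroblast list, so 36.7% cannot be read as an even share of free RNA.

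Cells rich in Csta2 were also rich in Cstdc4. In the 69 day 1 monocyte/macrophage-like cells with at least 3 Csta2 UMIs, Cstdc4 stood at 86.6 CPM and was found in 37 of them, against 4.19 CPM in the 3270 cells without Csta2, a log2 ratio of 4.37 (3.99 to 4.74). The next genes in that ranking were Vps8, a vesicle tethering gene, at 1.19, Ttc39c at 1.08 and Ppbp, a platelet chemokine gene, at 1.00. Read overlap between these 2 genes is possible: of the 98-base windows in the last 400 bases of their transcripts, 37 of 321 (11.5%) in Csta2 and 37 of 506 (7.31%) in Cstdc4 have the same letters in the other gene. No such window was shared by Stfa2l1, Stfa2, Cstb or Cst3 with another gene. Stfa2l1 and Stfa2 share a run of 97 bases there, just short of a window, so a shorter read could match both.

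Markers of other cells and depth were also read in these 69 cells. Their median was 14535 UMIs against 11166.5, the neutrophil list stood at 1087 against 1380 CPM, with UMIs of 8 of 9 markers and Ly6g at 0, and the macrophage list at 4503 against 4685 CPM. Stfa2l1 stood at 10.8 against 2.62 CPM. Of these cells, 8 (11.6%) were among those removed by doublet score in the alternative, against 5.05% of cells without Csta2. In the 13 cells with at least 10 Csta2 UMIs none was removed, the neutrophil list stood at 258 CPM and Cstdc4 at 80.0 CPM. The summed neutrophil list was thus lower in the cells richest in Csta2. Of the day 1 cells with Cstdc4, 45 of 94 (47.9%) had Csta2 against 2.75% of the others.

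Stfa2, which shares a run of 97 bases with Stfa2l1 in the last 400 transcript bases, was hardly detected. On day 1 it had 37 UMIs in the kept cells, 24 of them in 6 neutrophil-like cells (4.68 CPM, 3.00 to 6.96) and 14 of those in 1 cell. A further 12 UMIs lay in 3 endothelial cell-like cells (13.9 CPM) and 1 in dendritic cell-like cells. On day 3 no kept cell had a UMI, where 3 UMIs would be 0.04 CPM. The few cells do not allow an order of cell types.

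Cstb, which encodes stefin B (cystatin B), an inhibitor found in the cytosol and nucleus, had its highest level in monocyte/macrophage-like cells on both days. On day 1 it stood at 1758 CPM (1745 to 1771) in monocyte/macrophage-like, 1334 CPM in dendritic cell-like, 1136 CPM (1107 to 1165) in neutrophil-like, 826 CPM in endothelial cell-like and 373 CPM in fibroblast/FAP-like cells. The unnamed cluster, at 1073 CPM (1017 to 1131), could not be told from neutrophil-like cells by counting error. On day 3 the levels were 1084 CPM (1074 to 1094) in monocyte/macrophage-like cells, 670 CPM in neutrophil-like cells, 469 CPM in dendritic cell-like cells and 366 CPM in fibroblast/FAP-like cells, and 152 CPM in satellite/myogenic cell-like cells. Cstb was lower on day 3 in the 3 named myeloid types, with log2 ratios of −0.70 (−0.71 to −0.68) in monocyte/macrophage-like, −0.76 (−0.90 to −0.62) in neutrophil-like and −1.51 in dendritic cell-like cells, where 5.42% of genes were at least 2-fold lower. Fibroblast/FAP-like cells gave −0.03 (−0.07 to 0.02), which spans 0. Barcodes with at most 100 UMIs held Cstb at 1436 CPM on day 1 and 511 CPM on day 3, so free RNA moved in the same direction and on day 1 lay above the dendritic cell-like and neutrophil-like levels. With free RNA subtracted, at the share estimated in monocyte/macrophage-like cells, the ratio was −0.69 in monocyte/macrophage-like and −0.75 in neutrophil-like cells. The ratio of dendritic cell-like cells was not recomputed in this way, and the part of free RNA was not tested further.

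Cst3, the secreted cystatin C, had its highest level in dendritic cell-like cells on both days, at 3111 and 4074 CPM. On day 1 monocyte/macrophage-like cells (1032 CPM, 1022 to 1042) and neutrophil-like cells (1055 CPM, 1027 to 1083) did not differ beyond counting error, and fibroblast/FAP-like cells stood at 547 CPM. On day 3 these 3 types stood at 1663, 1412 and 1131 CPM. Dendritic cell-like over monocyte/macrophage-like cells gave a log2 ratio of 1.59 on day 1 and 1.29 on day 3, where 1.8% and 3.87% of genes were at least 2-fold higher. Opposite to Cstb, Cst3 was higher on day 3 in all 4 types, with log2 ratios of 0.69 (0.67 to 0.71) in monocyte/macrophage-like, 0.42 (0.32 to 0.52) in neutrophil-like, 0.39 in dendritic cell-like and 1.05 in fibroblast/FAP-like cells, where 16% of genes were at least 2-fold higher. Barcodes with at most 100 UMIs held Cst3 at 1069 and 1184 CPM, close to several of these levels.

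Over the 10 cell type by day groups with at least 50 cells, the genes with the most similar log2(CPM + 1) profile were listed for each of the 6, among 10276 genes. Retnlg was closest to Stfa2l1 (r = 0.99) and to Cstdc4 (0.99), with Il1f9, which encodes an interleukin-36, at 0.97 and 0.98. Csta2 was closest to Apbb3 at 0.91 and Gm11713 at 0.89, Cstb to the Fc receptor gene Fcgr3 at 0.98, and Cst3 to the copper chaperone gene Atox1 at 0.99. Between the 6 genes r was 0.98 for Stfa2l1 with Cstdc4, 0.71 for Stfa2l1 with Csta2, 0.69 for Csta2 with Cstb and 0.57 for Cstb with Cst3. The groups share libraries and depth, so these values are descriptions over 10 points.

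The listed cysteine proteases had a day and cell type pattern of their own. Of the 11 listed cysteine proteases, 9 had at least 500 UMIs in monocyte/macrophage-like cells, and 4 of these were at least 2-fold higher on day 3 and 0 at least 2-fold lower, with a median log2 ratio of 0.67 against 0.35 over all genes. In the background 20.3% of genes were at least 2-fold higher. The 4 were Ctsb (cathepsin B) at 3476 and 8206 CPM, Ctss (cathepsin S, which processes the invariant chain) at 1038 and 2100 CPM, Ctsk (cathepsin K, a collagenase) at 3.33 and 26.5 CPM, and Ctso at 8.51 and 28.1 CPM. Ctsc (cathepsin C, which activates granule serine proteases) was lower on day 3, at 1531 and 965 CPM, and Ctsl, Lgmn, Ctsz and Ctsh had log2 ratios of 0.25, 0.19, 0.17 and 0.67. Ctsf (13 and 55 UMIs) and Ctsw (0 and 1) were too low to count.

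In day 1 neutrophil-like cells the proteases were at lower levels than in monocyte/macrophage-like cells, unlike Stfa2l1 and Cstdc4. Of the 7 with at least 500 UMIs, 6 were at least 2-fold lower, with a median of −3.22 against −0.73 over all genes, and 43.1% of all genes were at least 2-fold lower. The legumain gene Lgmn gave −4.84, Ctsc −4.12 and Ctss −3.41, and Ctsz gave −0.69. In neutrophil-like cells on day 3 against day 1, 5 of 7 were at least 2-fold higher, against 16.7% of all genes, with Lgmn at 70.5 and 613 CPM and Ctss at 97.8 and 526 CPM. This contrast goes along with the macrophage list values of 342 and 2215 CPM given above, and its part was not tested.

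**Figure D4:**
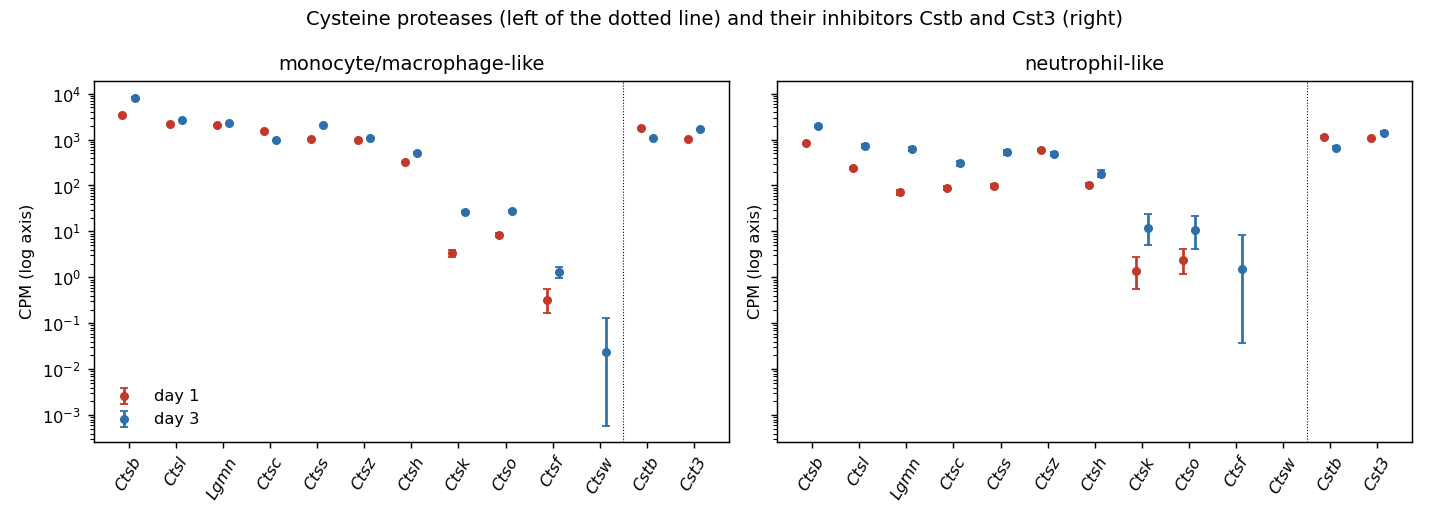
CPM (log axis) on day 1 and day 3 of the 11 listed cysteine proteases, left of the dotted line, and of Cstb and Cst3, right of it, in monocyte/macrophage-like and neutrophil-like cells; points are CPM of summed UMIs with exact Poisson 95% intervals, and genes with 0 UMIs are not drawn. In monocyte/macrophage-like cells Ctsb (3476 and 8206 CPM) and Ctsk (3.33 and 26.5 CPM) are higher on day 3, as is Cst3, whereas Cstb is higher on day 1.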

How the data were processed

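The deposited values are raw UMI counts for each gene in every listed barcode, which the authors had neither normalized nor filtered for cells, in 1 library per day of mononuclear cells of injured quadriceps. The submitters' processing notes name Cell Ranger 5.0.0 and mm10, whereas the file header names Cell Ranger 4. The number of listed barcodes was 737280 on day 1 and 6794880 on day 3, so library chemistry may differ with the day. Library totals were 74852240 and 102565783 UMIs.

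The 7367 (day 1) and 6640 (day 3) barcodes with the most UMIs were taken, with at least 1000 UMIs, at least 200 genes and at most 7.5% mitochondrial UMIs. Both libraries were clustered together in R 4.3.3 with Seurat 5.3.0 (SCTransform, sctransform 0.4.2, 3000 variable features, 10 principal components, resolution 0.8), and doublets were kept. Clusters were named by marker lists, and a cluster that failed the naming rule stayed unnamed; the rule that scores a cluster was set after marker values were seen. CPM of summed UMIs, shares, log2 ratios of CPM (0.5 added to each count, exact binomial intervals) and thinning to 1000 UMIs per cell were computed with scipy 1.17.1, pandas 2.3.3 and numpy 2.4.6 under Python 3.11.15, and the code was tested on simulated data. Barcodes of 100 or fewer UMIs gave the free RNA. With 1 library per day no test was made, and every interval covers counting error only. The background is the percentage of genes with at least 500 UMIs in the cells compared that pass a fold of 2.

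The 6 genes, the gene lists and the markers were chosen with earlier results of these data known. Named genes were the 6, a list of related genes with at least 100 UMIs and 11 cysteine proteases listed as possible targets. For each of the 6, the 3 genes with the highest Pearson correlation over cell type by day groups were also named. The genes leading the cells with Csta2 were named after their values were seen.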

Additional observations from a re-analysis of the deposited data

Results flagged for a closer look

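The cells left out for more than 7.5% mitochondrial UMIs, which enter no comparison above, also held UMIs of 4 of the genes above the limit that a count of 0 allows. On day 1, in 277 such cells, Stfa2l1 stood at 58.6 CPM, Cstdc4 at 133 CPM, Cstb at 655 CPM and Cst3 at 809 CPM. On day 3, in 1804 such cells, they stood at 1.85, 2.99, 418 and 994 CPM. Csta2 had 1 UMI in the former and 2 in the latter, and Stfa2 had 0 in both.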

How the results depend on the processing

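The CPM of Stfa2l1 in day 1 neutrophil-like cells, 376 in the report, moved to 39.7 with cells called by 10% of the 99th percentile of UMIs, 269 with a limit of 15% mitochondrial UMIs, 245 with each library clustered on its own, 255 with each cell named by its highest marker score and 310.3 with unnamed clusters given their best list. It moved less than its interval in the other 7 of 12 alternatives. The CPM of Csta2 in day 1 monocyte/macrophage-like cells moved from 14.8 to 12.5 as a mean over cells and to 11.5 with cells thinned to 1000 UMIs. Thinning also moved its share of cells from 3.99% to 0.91% and its log2 day ratio from −3.96 to −2.71. Both counts of genes past a fold of 2 were 3 in all 13 and 12 alternatives, a fold of 4 included, and no result changed sign.

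The day ratios below and the neutrophil-like cells without fibroblast-list UMIs were alternatives chosen after seeing the data. In neutrophil-like cells Cstb ranged from −1.23 to −0.70 and Cst3 from 0.41 to 0.86. In monocyte/macrophage-like cells Stfa2l1 ranged from −6.99 to −1.17, Cstdc4 from −8.90 to −3.49, Cstb from −0.78 to −0.68 and Cst3 from 0.67 to 0.79. The causes were not tested. A share of cells could not be computed for the mean over cells and for subtracted free RNA. No paired analysis was possible because each day has 1 library, and for the same reason no replicate could be left out.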

Other observations

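Other genes of the family had their own cell types. Of 29 names on the family list, 22 were listed in the files by symbol, and 6 of these had at least 100 UMIs in the kept cells. The stefin A genes Stfa1 and Csta3 lay mainly in neutrophil-like cells, at 26.1 CPM (21.9 to 30.9) and 25.7 CPM (21.5 to 30.5) on day 1. On day 3 they had 15 and 10 UMIs there. In monocyte/macrophage-like cells they had 13 and 10 UMIs on day 1.

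The type 2 cystatins were found elsewhere. Cst7 encodes cystatin F, a cysteine protease inhibitor expressed in immune cells. It stood at 13.6 CPM (10.5 to 17.4) on day 1 and 21.3 CPM (17.2 to 25.9) on day 3 in dendritic cell-like cells. In monocyte/macrophage-like cells it stood at 0.57 and 1.76 CPM. Cst6 (cystatin M/E) stood at 67.0 CPM (61.7 to 72.6) in the 200 satellite/myogenic cell-like cells of day 3 and at 79.6 CPM in the 23 endothelial cell-like cells of that day, on 18 UMIs. Fetub and Kng2, fetuin and kininogen genes with cystatin domains, were found mainly in fibroblast/FAP-like cells, at 3.19 and 2.50 CPM and at 1.22 and 3.77 CPM on days 1 and 3.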
